A study of Homo sapiens with 2 samples.

Results

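The genes described here are 7 S100 genes (S100A2, S100A4, S100A6, S100A10, S100A11, S100A13 and S100A16) and 3 annexin genes (ANXA1, ANXA2 and ANXA5), 10 of the 33538 genes listed in the matrices. They were picked by symbol, with earlier results of these libraries known, and the levels that led to the choice are the levels given below. The values are therefore a description and no test was run on them. Single cell RNA was counted in UMUC3, an established human bladder carcinoma line, in 1 library labelled GANAB knockdown and 1 labelled control. GANAB encodes the catalytic chain of the glucosidase that trims newly made N-glycans in the endoplasmic reticulum. All cells of both libraries had been placed orthotopically in the bladder of C57 nude mice, which lack mature T cells, and were taken after 14 days. The labels give no age of the mice, no number of mice behind a library and no method of knockdown, and with 1 library a group, library and group cannot be told apart.

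S100 proteins are small calcium sensors with a pair of EF-hands, most of which work as dimers that expose a binding face for other proteins when calcium rises. Annexins are unrelated in fold and bind acidic phospholipids of membranes when calcium is present, as in membrane repair, vesicle fusion and the inside-out flip that marks dying cells. The families meet in fixed pairs, above all S100A10 with annexin A2 and S100A11 with annexin A1. Neither family carries a signal peptide as a rule, so that members found outside cells leave them by routes other than the classical secretory pathway. In the bladder, S100 and annexin genes are known from both urothelium and the stroma around it.

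Cells were barcodes with at least 15000 unique molecular identifiers (UMIs) and at most 20% mitochondrial UMIs, 2672 in the knockdown and 4385 in the control library. Their median depth was 40933 UMIs in knockdown and 44046 in control cells, and 4 barcodes occurred in both. Levels are given in CPM, a gene's UMIs in a group of cells per 1000000 UMIs of that group, with 95% intervals that cover counting error only, and since reads were counted at the 3' end they are compared between groups and not between genes. Of 12 markers of the line, 11 reached 10 CPM in knockdown and 10 in control cells, KRT19 being low in both. None of 7 urothelial markers reached 10 CPM, with UPK3A and KRT20 at 0. Fibroblast markers summed to 12.4 CPM in knockdown and 15.0 CPM in control cells, with DCN and LUM at 0. Macrophage and monocyte markers summed to 25.2 and 26.9 CPM, mostly CD68, and neutrophil markers to 67.5 and 130 CPM, mostly G0S2. All listed genes are human, and the notes used here do not say how reads from mouse cells were counted.

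GANAB stood at 42.3 CPM in knockdown cells and 127 CPM in control cells, a log2 ratio of -1.58 (-1.62 to -1.54). The libraries also differed in the long noncoding RNA TMEM132D-AS1, which had at least 2 UMIs in 1942 knockdown cells (72.7%) and 241 control cells (5.50%). The members were therefore also compared within these cells alone, where GANAB stood at 38.1 CPM in knockdown and 130 CPM in control cells. The 241 control cells were deeper, with a median of 51552 UMIs, against 41100 in the 1942 knockdown cells. A gene counted as measured at 10 CPM or more in either group. It was called when its levels differed by 1.5 times or more and the interval of the ratio did not hold 1, a criterion of size with no test behind it.

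All 10 members were measured in both comparisons. Over all cells 5 were higher in the knockdown library, S100A4, S100A6, S100A10, S100A13 and ANXA1, and 1 was lower, S100A16. Of all 7872 measured genes 18.1% were called, 7.69% higher and 10.4% lower. The median log2 ratio was 0.73 for the members and -0.07 for all measured genes. Within cells with TMEM132D-AS1, 4 members were higher, S100A4, S100A6, S100A10 and ANXA1, and S100A16 was again lower, where 8.16% of 7720 measured genes were called, 3.58% higher and 4.59% lower. There the medians were 0.44 for the members and -0.09 for all measured genes. Since the members were chosen for values of this contrast, nothing is read from these counts.

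**Figure D1:**
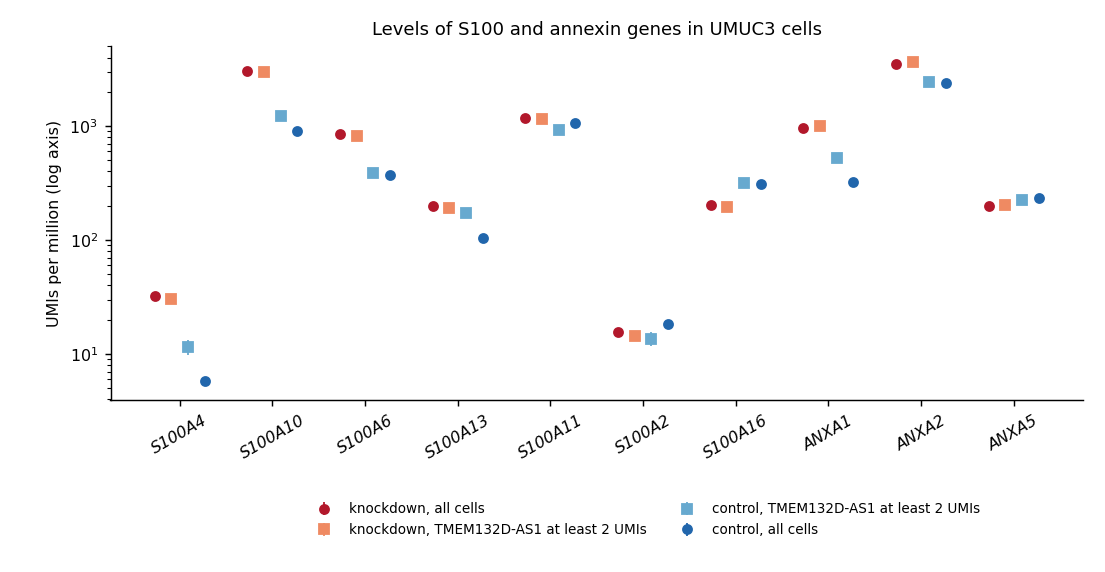
Levels of the 10 genes in CPM on a log axis, summed over all knockdown cells, knockdown cells with TMEM132D-AS1, control cells with TMEM132D-AS1 and all control cells, with 95% counting intervals where they exceed the symbol. Both knockdown values lie above both control values for S100A4, S100A6, S100A10, S100A13 and ANXA1, and below both for S100A16; for S100A13 the control cells with TMEM132D-AS1 (174 CPM) come close to the knockdown cells (192 CPM).

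Among the S100 genes, S100A4 had the largest ratio. S100A4 binds the heavy chain of nonmuscle myosin and is known for its part in cell motility and metastasis. It was counted at 32.2 CPM (4268 UMIs) in knockdown cells and 5.75 CPM (1232 UMIs) in control cells, a log2 ratio of 2.48 (2.39 to 2.58). Only 43 of the 7872 measured genes had a higher ratio. In cells with TMEM132D-AS1 it was at 30.3 CPM in the knockdown and 11.5 CPM in the control library, a log2 ratio of 1.40 (1.17 to 1.64). The gene was sparse in both libraries: at an equal depth of 15000 UMIs, 1911 of 2672 knockdown cells and 4068 of 4385 control cells held none of its UMIs. S100A3 overlaps S100A4 on the same strand, so that reads in shared sequence may be split or lost; it was at 5.32 CPM in knockdown and 1.03 CPM in control cells.

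S100A10, also called p11, is the S100 protein that has lost calcium binding, holds annexin A2 at the membrane and serves there as a receptor for plasminogen. It was at 3063 CPM in knockdown and 902 CPM in control cells, a log2 ratio of 1.76 (1.76 to 1.77). In cells with TMEM132D-AS1 the levels were 2981 CPM in the knockdown and 1238 CPM in the control library, a log2 ratio of 1.27 (1.25 to 1.29). Across single cells thinned to 15000 UMIs the median was 39 UMIs in knockdown cells, with 10th and 90th percentiles of 16 and 95, and 13 in control cells, with 5 and 25. The 2 distributions overlapped, but 74.4% of knockdown cells lay above the 90th percentile of control cells. S100A10 also varied more among knockdown cells, with a variance of 27.6 times the mean, against 5.28 times in control cells. Such a multiple can rise with the mean, which was 49.6 UMIs in knockdown and 14.6 in control cells. The standard deviations were 37.0 and 8.77 UMIs.

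S100A6, calcyclin, binds the ubiquitin ligase adaptor CACYBP and is commonly high in dividing and stressed cells. It was at 858 CPM in knockdown and 372 CPM in control cells, a log2 ratio of 1.21 (1.19 to 1.22). Among cells with TMEM132D-AS1 it was at 814 CPM in the knockdown and 385 CPM in the control library, a log2 ratio of 1.08 (1.04 to 1.12). At equal depth the median cell held 8 UMIs in the knockdown and 3 in the control library, and 31.7% of knockdown cells lay above the 90th percentile of control cells, so that the distributions overlapped widely. Its spread was very uneven, with a variance of 142 times the mean in knockdown and 158 times in control cells.

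A few cells carried much of the S100A6 signal. At 15000 UMIs a cell, 30 knockdown cells held 100 or more S100A6 UMIs and 22.8% of the S100A6 UMIs in thinned knockdown cells, while 13 control cells held 18.3% of those in thinned control cells. The highest single cell had 1072 of 15000 UMIs in the knockdown and 1697 in the control library. These cells had less mitochondrial RNA, a median of 0.187% in knockdown and 0.497% in control ones, against 0.930% and 1.51% in the other cells. GATA3, a urothelial transcription factor, was at 147 CPM in the 30 knockdown cells against 0.757 CPM in the other knockdown cells, and at 66.7 CPM in the 13 control cells against 1.01 CPM in the other control cells. RAB25, an epithelial GTPase, was at 118 against 0.151 CPM in the knockdown and at 128 against 0.0915 CPM in the control library. KRT14, a basal keratin, and COL1A1, a collagen chain of fibroblasts, were at 2.22 and 6.67 CPM in the 30 knockdown cells, but at 518 and 564 CPM in the 13 control cells, against 0.0305 and 7.18 CPM in the other control cells. The keratins KRT8 and KRT18 were not higher in these cells of either library, with KRT8 at 196 against 206 CPM in the knockdown and 164 against 169 CPM in the control library. VIM, a marker of the line, was lower, at 2440 against 5307 CPM in the knockdown and 1913 against 3405 CPM in the control library. The member S100A2 was at 142 against 14.2 CPM in the knockdown and 25.6 against 16.9 CPM in the control library. Whether mouse reads were counted on human genes in these cells was not tested. Without these cells the mean was 12.7 S100A6 UMIs in knockdown and 5.31 in control cells. What these cells are, and their part in the level of S100A6, was not tested beyond these values.

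S100A13 takes part in the release of growth factors that lack a signal peptide, such as FGF1. It was at 199 CPM in knockdown and 105 CPM in control cells, a log2 ratio of 0.92 (0.90 to 0.95). In cells with TMEM132D-AS1 the values nearly met, at 192 CPM in the knockdown and 174 CPM in the control library, a log2 ratio of 0.14 (0.08 to 0.20). S100A13 was thus called in the whole libraries and not in this subset. The difference between the ratios was not tested.

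S100A16, a broadly expressed member with weak calcium binding, went the other way. It was at 201 CPM in knockdown and 310 CPM in control cells, a log2 ratio of -0.62 (-0.64 to -0.60). Within cells with TMEM132D-AS1 it was at 194 CPM in the knockdown and 314 CPM in the control library, a log2 ratio of -0.69 (-0.74 to -0.65). At equal depth 1.83% of knockdown cells and 9.12% of control cells lay above the 90th percentile of control cells. When ratios were centred on the median of all genes, its ratio over all cells became -0.55, short of the size rule.

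S100A11 and S100A2 were not called in either comparison. S100A11, the partner of annexin A1 that is involved in growth arrest and membrane resealing, was at 1174 CPM in knockdown and 1075 CPM in control cells, a log2 ratio of 0.13 (0.12 to 0.14). Its distributions over all cells nearly coincided, with medians of 16 UMIs in knockdown and 15 in control cells at equal depth. In cells with TMEM132D-AS1 it was at 1154 CPM in the knockdown and 932 CPM in the control library, a log2 ratio of 0.31 (0.28 to 0.33), with medians of 16 and 13 UMIs. S100A2, a gene of basal and squamous epithelia whose product binds p53, was at 15.7 CPM in knockdown and 18.2 CPM in control cells, a log2 ratio of -0.21 (-0.29 to -0.13). With TMEM132D-AS1 present it was at 14.3 CPM in the knockdown and 13.7 CPM in the control library. Of the 187 control UMIs there, 83 came from 17 cells. The S100A2 ratio moved with the choice of cells: among cells with no MKI67 or TOP2A UMI it was past the rule as lower, at -0.65 over all cells and -1.15 with TMEM132D-AS1, and with TMEM132D-AS1 at 3 UMIs or more it was past it as higher, at 0.82.

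ANXA1, the glucocorticoid-induced annexin whose amino-terminal end acts on formyl peptide receptors, had the largest ratio of the annexins. It was at 968 CPM in knockdown and 324 CPM in control cells, a log2 ratio of 1.58 (1.56 to 1.59). In cells with TMEM132D-AS1 it was at 1007 CPM in the knockdown and 528 CPM in the control library, a log2 ratio of 0.93 (0.90 to 0.97). The median cell at equal depth held 12 ANXA1 UMIs in the knockdown and 4 in the control library, and 62.8% of knockdown cells lay above the 90th percentile of control cells. ANXA1 and S100A10 were the members in which most knockdown cells lay beyond that percentile.

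ANXA2, the partner of S100A10, stood just short of the size rule in both comparisons. It was at 3515 CPM in knockdown and 2411 CPM in control cells, a log2 ratio of 0.54 (0.54 to 0.55), and at 3650 and 2458 CPM in knockdown and control cells with TMEM132D-AS1, a log2 ratio of 0.57 (0.55 to 0.59). Several other settings put it past the rule over all cells. They were centring on the median of all genes, counting each cell equally and thinning (0.61 each), and leaving out cells with MKI67 or TOP2A (0.71). In cells with TMEM132D-AS1 the highest ratio under other settings was 0.72, without cells with MKI67 or TOP2A, also past the rule. ANXA5, the phosphatidylserine binder used to stain dying cells, was at 201 CPM in knockdown and 235 CPM in control cells, a log2 ratio of -0.22 (-0.25 to -0.20), and was not called in either comparison.

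**Figure D2:**
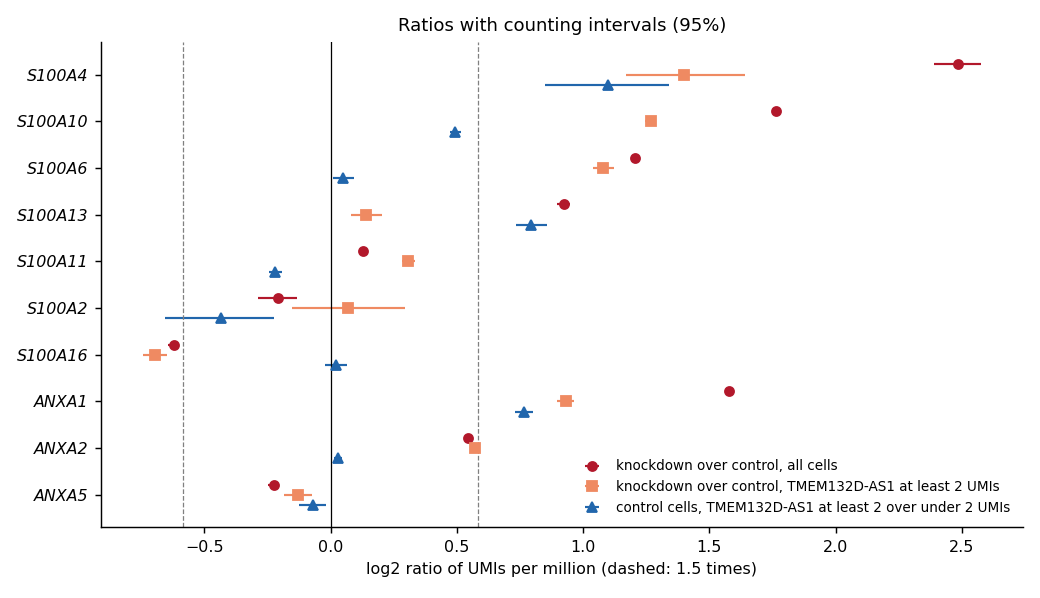
Log2 ratios of CPM with 95% counting intervals and dashed lines at 1.5 times. Circles show knockdown over control in all cells, and squares show it in cells with TMEM132D-AS1. Triangles show control cells with at least 2 TMEM132D-AS1 UMIs over control cells with under 2. S100A4, S100A10, S100A6 and ANXA1 lie beyond the right line in both knockdown comparisons; S100A13 lies beyond it over all cells (0.92) and near 0 in the subset (0.14), while its triangle is at 0.80.

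The promoters of the 5 genes called in both comparisons are shown because 4 of these genes were called in one direction and S100A16 in the other. All 10 members matched the RefSeq promoter table of build GRCh38.p14, with 14 entries, and the sequences run from 250 bases before to 50 bases after the annotated start, 5′ to 3′ on the gene's strand. S100A4 is from chr1:153545757-153546056 (minus strand), S100A10 from chr1:151993810-151994109 (minus), S100A6 from chr1:153535942-153536241 (minus), ANXA1 from chr9:73151615-73151914 (plus) and S100A16, the first of its entries, from chr1:153613088-153613387 (minus). Capitals mark matches on either strand to 5 motifs: TATAAA, the TATA box; GGGCGG, the GC box; TGANTCA, which AP-1 binds; GGAATG, which TEAD factors bind; and CAGGTG, the E-box of Snail and ZEB factors.
S100A4: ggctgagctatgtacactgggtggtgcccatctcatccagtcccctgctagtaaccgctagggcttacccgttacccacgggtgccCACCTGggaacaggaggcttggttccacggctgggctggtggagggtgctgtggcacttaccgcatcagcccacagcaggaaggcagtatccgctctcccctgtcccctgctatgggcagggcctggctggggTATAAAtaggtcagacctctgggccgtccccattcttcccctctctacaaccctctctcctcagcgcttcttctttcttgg
S100A10: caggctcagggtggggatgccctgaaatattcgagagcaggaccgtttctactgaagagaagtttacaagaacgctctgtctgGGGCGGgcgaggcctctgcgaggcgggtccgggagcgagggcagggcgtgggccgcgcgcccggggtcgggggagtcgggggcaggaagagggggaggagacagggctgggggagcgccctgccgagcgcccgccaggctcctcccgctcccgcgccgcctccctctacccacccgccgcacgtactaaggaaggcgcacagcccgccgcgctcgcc
S100A6: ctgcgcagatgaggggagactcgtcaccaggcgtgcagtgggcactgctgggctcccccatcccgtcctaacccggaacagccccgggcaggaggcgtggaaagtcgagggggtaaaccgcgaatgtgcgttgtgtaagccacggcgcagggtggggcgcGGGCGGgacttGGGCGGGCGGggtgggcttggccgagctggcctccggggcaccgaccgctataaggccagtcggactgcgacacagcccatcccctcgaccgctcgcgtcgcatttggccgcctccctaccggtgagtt
ANXA1: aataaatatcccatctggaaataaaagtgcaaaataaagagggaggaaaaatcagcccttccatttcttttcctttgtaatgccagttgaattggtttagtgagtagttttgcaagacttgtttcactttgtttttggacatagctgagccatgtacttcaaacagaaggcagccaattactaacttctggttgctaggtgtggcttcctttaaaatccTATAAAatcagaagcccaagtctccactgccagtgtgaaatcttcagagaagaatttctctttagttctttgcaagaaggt
S100A16: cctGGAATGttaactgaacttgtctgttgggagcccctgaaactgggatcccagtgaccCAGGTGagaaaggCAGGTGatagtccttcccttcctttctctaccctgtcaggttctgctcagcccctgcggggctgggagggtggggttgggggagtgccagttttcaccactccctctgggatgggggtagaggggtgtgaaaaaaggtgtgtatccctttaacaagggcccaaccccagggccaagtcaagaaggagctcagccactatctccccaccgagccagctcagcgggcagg

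The 4 promoters of genes higher in the knockdown library shared no single motif of the 5. TATAAA lay 31 bases before the start in both S100A4 and ANXA1 and in 11.5% of all 35116 promoters searched. GGGCGG occurred in S100A10 once and in S100A6 as 3 matches, 2 of which overlap, and in 45.0% of all promoters. CAGGTG occurred once in S100A4 and 2 times in S100A16, and in 20.6% of all promoters, and GGAATG once in S100A16 and in 14.0% of all. TGANTCA, found in 7.71% of all promoters, had no match in these 5 windows. The share of G and C ran between 37.7% in the ANXA1 window and 71.7% in that of S100A10, against a median of 58.7% over all promoters.

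Control cells were then compared among themselves, since 241 of them carried TMEM132D-AS1 and 4144 did not. GANAB was alike in both, at 130 CPM with TMEM132D-AS1 and 126 CPM without. S100A4 was at 11.5 CPM in control cells with TMEM132D-AS1 and 5.36 CPM without, a log2 ratio of 1.10 (0.85 to 1.34). S100A13 was at 174 CPM with and 100.2 CPM without, a log2 ratio of 0.80 (0.73 to 0.86); in cells with no MKI67 or TOP2A UMI, genes of proliferation, that ratio was 0.34, short of the rule. ANXA1 was at 528 CPM with and 310 CPM without, a log2 ratio of 0.77 (0.73 to 0.80). These 3 members were called higher and none lower, where 4.58% of 7747 measured genes were called higher and 4.41% lower.

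S100A10 was at 1238 CPM in control cells with TMEM132D-AS1 and 879 CPM without, a log2 ratio of 0.49 (0.47 to 0.52), short of the rule. S100A6 (385 and 371 CPM), S100A16 (314 and 310 CPM) and ANXA2 (2458 and 2407 CPM) differed by log2 ratios of 0.05, 0.02 and 0.03 within the control library. Summed levels of S100A6, S100A16 and ANXA2 were thus alike in control cells with and without TMEM132D-AS1. At equal depth the median control cell held 4 S100A6 UMIs with TMEM132D-AS1 and 3 without. The 13 control cells with 100 or more S100A6 UMIs at equal depth had TMEM132D-AS1 at 0 CPM, and this comparison was not run without them. For S100A4, S100A10, S100A13 and ANXA1, control cells with TMEM132D-AS1 stood further apart, between the other control cells and the knockdown cells. Among knockdown cells the same split called no member, where 0.290% of 7593 measured genes were called higher and 0.514% lower. Knockdown cells with under 2 TMEM132D-AS1 UMIs were high as well. S100A10 was at 3293 CPM in these 730 cells and 879 CPM in the 4144 control cells with under 2. S100A4 was at 37.3 and 5.36 CPM. There 5 members were called higher and none lower, where 16.4% of 7886 measured genes were called, 7.85% higher and 8.57% lower.

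**Figure D3:**
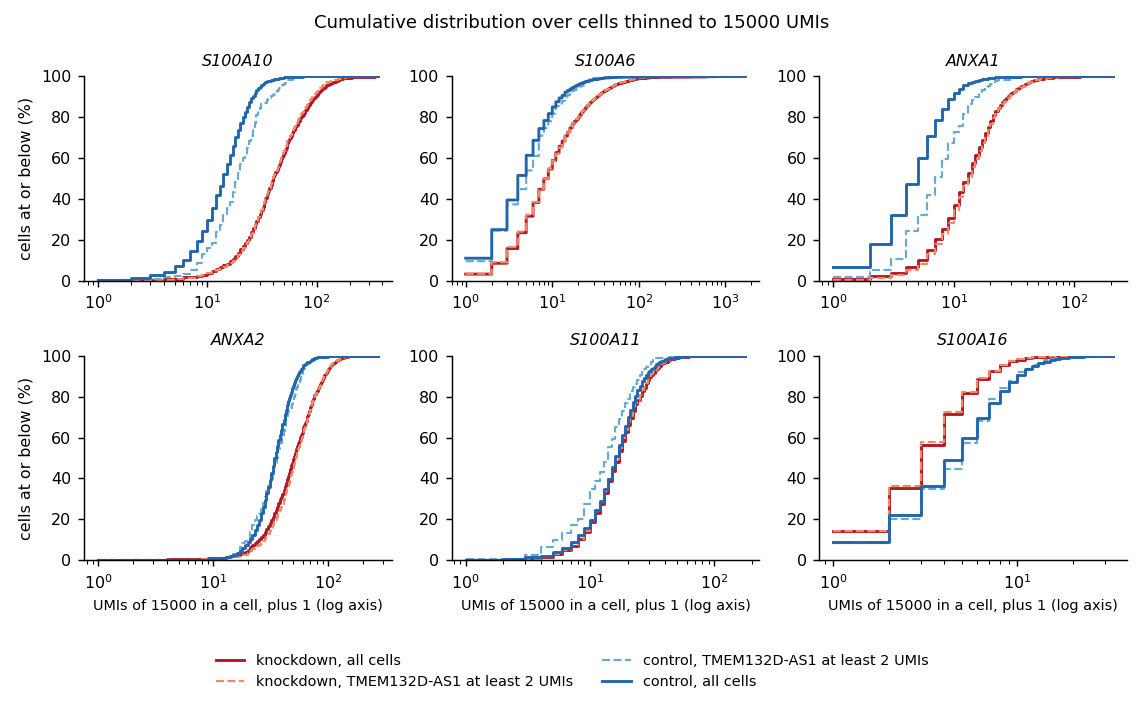
Cumulative share of cells against the UMIs of a gene in a cell thinned to 15000 UMIs, plus 1, on a log axis, for all knockdown cells, knockdown cells with TMEM132D-AS1, control cells with TMEM132D-AS1 and all control cells. A curve further right means higher levels: for S100A10 the medians are 39 UMIs in knockdown cells, 18 in control cells with TMEM132D-AS1 and 13 in all control cells, while for S100A11 both knockdown curves and that of all control cells lie close together, with control cells with TMEM132D-AS1 to their left.

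The other 24 genes of both families were mostly silent, and 4 of them, all annexins, were measured. ANXA6, which takes part in membrane repair and endocytosis, was at 65.8 CPM in knockdown and 39.0 CPM in control cells and was called higher, but in cells with TMEM132D-AS1 it was at 65.2 and 62.0 CPM. ANXA4 was at 64.8 CPM in knockdown and 46.4 CPM in control cells, short of the rule, and at 65.7 and 41.0 CPM in cells with TMEM132D-AS1, past it. ANXA7 was at 58.7 CPM in knockdown and 79.2 CPM in control cells and ANXA11 at 77.2 and 105 CPM, neither called. Of the S100 genes outside the members none reached 10 CPM; S100A8 and S100A9, the calprotectin genes of neutrophils, were at 0.0603 and 1.22 CPM in knockdown and 0.462 and 0.299 CPM in control cells.

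**Figure D4:**
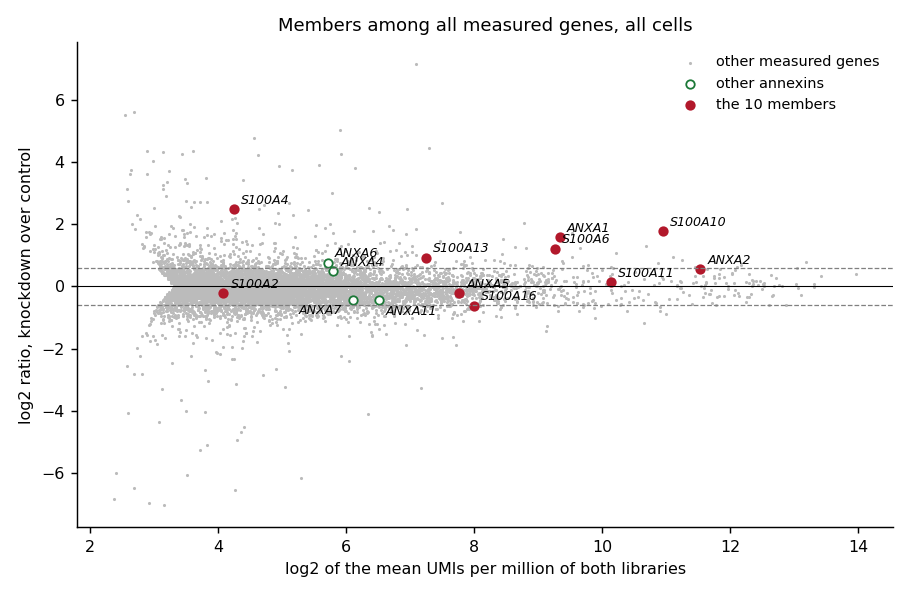
Log2 ratio of knockdown over control against the log2 of the mean level, all cells, for all 7872 measured genes (grey), the 10 members (red) and the other measured annexins (open circles), with dashed lines at 1.5 times. S100A4, S100A10, S100A6, S100A13 and ANXA1 lie above the upper line, where 7.69% of genes lie, and S100A16 just below the lower one.

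Genes of proteins that bind the members were read from a list of 22, of which 12 were measured. Over all cells 1 was higher and 2 were lower, near the 7.69% and 10.4% of all measured genes, with a median log2 ratio of -0.23. PLAT, the tissue plasminogen activator, was at 11.4 CPM in knockdown and 4.55 CPM in control cells, yet was called lower in cells with TMEM132D-AS1, with a log2 ratio of -0.64 (-0.83 to -0.43). MYH9, the myosin heavy chain bound by S100A4, was at 87.0 CPM in knockdown and 156 CPM in control cells, and TSG101, of the sorting machinery that buds vesicles, at 25.9 and 48.8 CPM. Neither was called in cells with TMEM132D-AS1, where MYH9 was at 83.7 CPM in the knockdown and 109 CPM in the control library and TSG101 at 25.1 and 30.6 CPM. AHNAK, a giant scaffold bound by S100A10 with annexin A2, was at 316 CPM in knockdown and 244 CPM in control cells, and CACYBP at 191 and 262 CPM, neither called. The receptors AGER (0.286 and 0.271 CPM) and FPR1 (0.0527 and 0.0794 CPM) were near 0 in both libraries.

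Other calcium sensors and repair genes were also read from fixed lists. Of 17 EF-hand genes outside the S100 family, all measured, 2 were higher and 1 lower over all cells, near the 7.69% and 10.4% of all measured genes, with a median log2 ratio of -0.14. GCA, grancalcin, was at 15.1 CPM in knockdown and 9.39 CPM in control cells, and MYL6, a myosin light chain, at 1383 and 920.3 CPM. With TMEM132D-AS1 present GCA was again called, with a log2 ratio of 0.79, and MYL6 was not, at 1391 CPM in the knockdown and 1140 CPM in the control library. Of 16 membrane repair genes 12 were measured. Over all cells 1 was higher, ANXA6, and 0 lower, against 7.69% and 10.4% of all measured genes, with a median of 0.03. In cells with TMEM132D-AS1 1 of 12 measured was higher and 0 lower, against 3.58% and 4.59%, and ANXA6 was not called there.

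The 7 S100 members lie on the long arm of chromosome 1, in GRCh38, between the start of S100A10 (151982915) and the end of S100A13 (153631360), with genes of the epidermal barrier between them. S100A4 (153543613 to 153550136), S100A6 (153534599 to 153536244) and S100A16 (153606886 to 153613145) lie near each other on the minus strand; S100A4 and S100A6 were higher and S100A16 lower, and S100A2 (153561108 to 153567890), which was not called, lies between S100A4 and S100A16. ANXA1 is on chromosome 9 (73151757 to 73170393), ANXA2 on chromosome 15 (60347134 to 60402883) and ANXA5 on chromosome 4 (121667955 to 121697113). S100A6, S100A11 and S100A13 overlap genes on the opposite strand (BX470102.1, AL450992.1 and S100A1), and as the notes used here do not state the strand setting of the counting, their reads may be shared or lost. S100A11 has 2 and ANXA2 3 annotated pseudogene copies, none of them listed in the matrices. Within 500 kb of a member 17 of 102 other genes were measured. Over all cells none was called higher and 3 lower, against 7.69% and 10.4% of all measured genes. The 3 were TUFT1 near S100A10 (-0.85) and EXOSC9 (-0.78) and CCNA2 (-0.67) near ANXA5. None of the 17 was called in cells with TMEM132D-AS1, where 8.16% of 7720 measured genes were called. There TUFT1 was at -0.58, EXOSC9 at -0.55 and CCNA2 at -0.30. The highest log2 ratios over all cells were those of RPS27 (0.38), KIAA1109 (0.38) and ICE2 (0.15). None of 7 fused-type S100 genes of the same cluster was measured.

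Within each library, levels were also set against cell states, and by GANAB UMIs, with the same size rule. The share of all genes past the rule was not computed for any of these splits. Nothing is therefore read from the number of members past it. S100A6 was lower in cells with a UMI of the proliferation genes MKI67 or TOP2A, at 665 CPM in 1354 knockdown cells with one and 1214 CPM in 1318 without, and at 326 CPM in 2761 control cells with one and 498 CPM in 1624 without. S100A4 followed in the control library, at 4.84 CPM with and 8.22 CPM without. Cells with such UMIs were deeper, with medians of 56066.5 UMIs against 32649 in the knockdown and 53553 against 33437.5 in the control library. The part of depth in this was not tested. The 30 knockdown and 13 control cells with 100 or more S100A6 UMIs at equal depth were not left out of this split. They held 22.8% and 18.3% of the thinned S100A6 UMIs, and their part in the S100A6 difference was not tested. The other members were not past the size rule in either library.

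Cells were also split by whether they held a GANAB UMI at equal depth. GANAB stood at 26.5 CPM in knockdown cells with no such UMI and 62.0 CPM in those with such a UMI. In control cells it stood at 72.0 and 139 CPM. The UMIs that set the split are counted in these levels, and the cells without such UMIs still held GANAB. The split thus sorted cells partly by sampling and could miss a link to GANAB. Whether the members follow GANAB was not tested. In 1518 knockdown cells with no GANAB UMI at equal depth S100A10 was at 3062 CPM, against 3065 CPM in 1154 knockdown cells with one, and no member was past the rule. In the control library S100A6 was at 513 CPM in 826 cells with no GANAB UMI and 341 CPM in 3559 with such a UMI, the only member past the rule. The 13 control cells with 100 or more S100A6 UMIs at equal depth had GANAB at 56.4 CPM, against 123 CPM in the other control cells. Their part in this difference was not tested. No member was past the rule between 427 knockdown cells with 10 or more UMIs of the interferon-induced genes IFIT1, IFIT2 and IFIT3 and the other 2245. Control cells had few such UMIs: in the 41 with 10 or more, S100A2 was at 32.0 CPM, against 18.1 CPM in the other 4344, and S100A4 at 10.8 CPM, against 5.71 CPM, both past the rule. Cells with a UMI of COL1A1, COL1A2 or COL3A1 (135 knockdown and 275 control cells) differed past the rule in S100A4 alone, in the control library, at 9.38 CPM with and 5.49 CPM without.

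Over single cells of the knockdown library, thinned to 15000 UMIs, S100A10 and ANXA2 had the highest Pearson correlation of the 45 member pairs, 0.444, against 0.161 in the control library. S100A6 with S100A10 followed at 0.433 in knockdown and 0.343 in control cells, and S100A4 with S100A6 at 0.386 and 0.193. S100A11 and ANXA1, the other fixed pair named above, correlated at 0.140 in knockdown and 0.117 in control cells. Outside the members, RPLP1 correlated with ANXA2 at 0.453 over knockdown cells. Correlations of 0.3 or more were found for 7 of 45 pairs in the knockdown and 1 of 45 in the control library. The share of all gene pairs at 0.3 or more was not computed, so nothing is read from these counts. The correlations are descriptions over the cells of 1 library each, 2672 and 4385 of them. Levels of most of these genes were lower in control cells.

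Of genes outside the members, those with the pattern most like S100A10 were SH3BGRL3 (0.481), CAV1 (0.425) and OCIAD2 (0.415) over knockdown cells, and PTMS (0.420), TMSB4X (0.407) and PHPT1 (0.363) over control cells. SH3BGRL3 was also among the 3 most alike genes of S100A4 (0.292), S100A6 (0.409) and S100A13 (0.269) in the knockdown library. S100A6 was most like GSN, gelsolin, an actin-severing protein (0.417), in knockdown cells, and TMSB4X (0.318) in control cells. In both libraries the gene most like ANXA1 was TXN, thioredoxin (0.337 in knockdown and 0.236 in control cells), and the gene most like ANXA5 was YWHAB (0.231 and 0.220). S100A11 had PFN1, profilin, among its closest in both (0.470 in knockdown and 0.400 in control cells).

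The thresholds that define the cells touched some members and not others. Among barcodes just below the depth minimum, with 10000 to 15000 UMIs, S100A6 was at 4001 CPM in 277 knockdown and 1804 CPM in 266 control barcodes, and just above it, with 15000 to 20000 UMIs, at 2970 CPM in 218 knockdown and 1117 CPM in 247 control barcodes. S100A10 was at 3249 and 1190 CPM just below, and 3471 and 1174 CPM just above, in knockdown and control barcodes. ANXA1 was at 753 and 209 CPM just below, and 881 and 257 CPM just above. The other threshold was that of TMEM132D-AS1: cells with exactly 2 UMIs had S100A10 at 3198 CPM in 164 knockdown and 1208 CPM in 17 control cells, and cells with exactly 1 at 3696 CPM in 114 knockdown and 1104 CPM in 42 control cells.

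**Figure D5:**
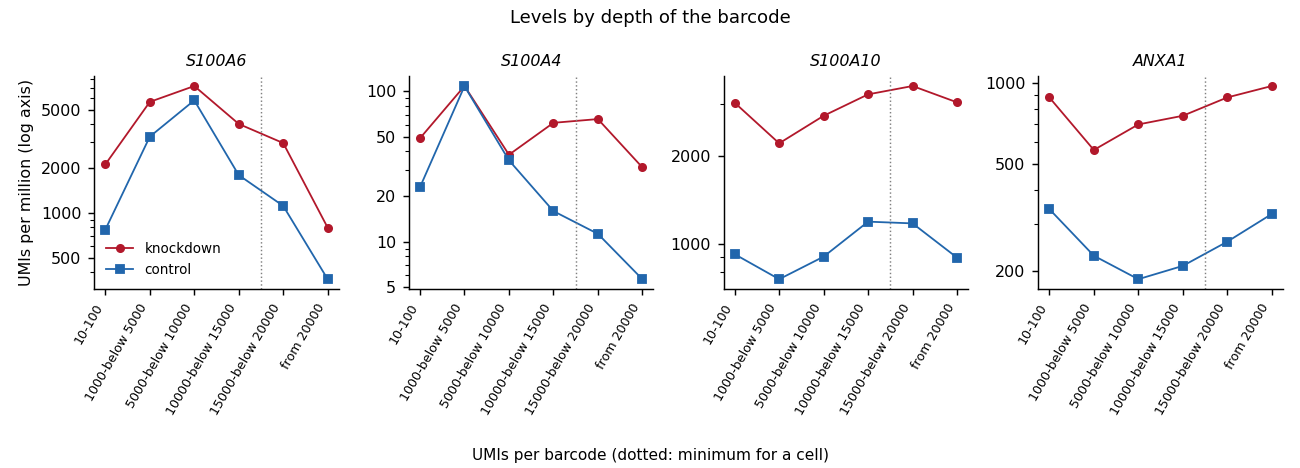
Levels in CPM on a log axis for S100A6, S100A4, S100A10 and ANXA1 by the number of UMIs of a barcode, in the knockdown (circles) and control (squares) libraries, with a dotted line at the minimum for a cell. S100A6 is highest in barcodes of 5000 to 10000 UMIs, at 7221 CPM in the knockdown and 5777 CPM in the control library, and lower in deeper barcodes of both; S100A10 and ANXA1 keep a gap between the libraries at every depth.

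In barcodes of 10 to 100 UMIs, which hold mostly free RNA, S100A10 was at 3041 CPM in the knockdown and 921 CPM in the control library, close to the levels in cells. The part of free RNA in the levels of single cells was not tested. S100A6 was at 2131 CPM in these barcodes of the knockdown and 772 CPM in those of the control library, above its levels in cells (858 and 372 CPM). S100A4 was at 48.7 CPM in these barcodes of the knockdown and 23.1 CPM in those of the control library, above its level in cells of both.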

How the data were processed

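The authors deposited UMI counts for each gene in each barcode, not normalised, made with Cell Ranger 3.1.0 against GRCh38, per the submitters' processing notes. Libraries were 10x Genomics 3' v3, with 10000 cells added per channel, per the labels' protocols. The notes used here state neither counting settings nor whether the reference held mouse sequence. Each matrix lists 6794880 barcodes, so cells were set by depth (15000 UMIs). Cells held 85.6% of the 155064055 knockdown UMIs and 89.3% of the 239857346 control UMIs. No doublet caller was run. UMIs were summed over cells and divided by their total. Ratios carry exact conditional binomial intervals and levels exact Poisson intervals (95%), for counting error only. Thinning drew 15000 UMIs a cell without replacement. Correlations used log2(CPM + 100) over genes at 50 CPM or more. Gene positions come from GENCODE release 29 (33456 of 33538 identifiers matched). The members, lists and thresholds were chosen with earlier results of these data known. Named were GANAB, the members, measured genes of both families, up to 4 genes a list, 3 neighbours at each end and 3 alike genes a member. GATA3, RAB25, KRT14, COL1A1, KRT8, KRT18, VIM, S100A3, S100A8 and S100A9, and cells with 100 S100A6 UMIs, were chosen after values were seen. The values of 1 gene of the EF-hand list are not reported here. Python 3.11.15, numpy 2.4.6, scipy 1.17.1 and pandas 2.3.3 were used, and the interval and calling code was tested on simulated counts.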

Additional observations from a re-analysis of the deposited data

Results flagged for a closer look

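Barcodes of 10 to 100 UMIs entered no count of called genes. In those of the knockdown library S100A9, S100A8, S100A4 and S100A6 stood above both the control barcodes of that depth and the knockdown cells. S100A9 was at 131 CPM (573 UMIs over 77775 barcodes) in the knockdown and 0.197 CPM (1 UMI over 81659 barcodes) in the control library. S100A8, its partner in calprotectin, was at 5.26 CPM in the knockdown and 0.197 CPM in the control library. S100A4 was at 48.7 and 23.1 CPM, and S100A6 at 2131 and 772 CPM. In cells S100A9 was at 1.22 CPM in the knockdown and 0.299 CPM in the control library. The fibroblast marker DCN, at 0 in cells of both libraries, was at 14.2 CPM in these knockdown barcodes and 48.5 CPM in the control ones. The source of this RNA was not tested.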

How the results depend on the processing

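With 1 library a group, leaving out a replicate was not possible. No paired analysis was possible because each group has 1 library. Of 182 counts under other settings 154 stayed within 1.5 times and 28 moved; of 360 single ratios 238 stayed within their interval and 122 moved, and no called ratio changed sign. Centring left 0 members lower over all cells. Counting cells equally, thinning and TMEM132D-AS1 at 3 UMIs each put 1 member, S100A2, lower between control cells. In cells with no MKI67 or TOP2A UMI, 2 members were lower in both comparisons, S100A2 joining S100A16, and 2 other family genes were higher over all cells. S100A2 ranged from -1.15 to 0.82 in cells with TMEM132D-AS1 and crossed 0. A rule of 2 times left 0 members lower in both comparisons, 1 member higher between control cells, 0 other family genes higher, and 230 genes higher and 185 lower over all cells, 93 and 73 with TMEM132D-AS1. A minimum of 50 CPM gave 194 higher and 292 lower genes over all cells, 80 and 117 with TMEM132D-AS1. With no minimum, 7 other family genes were higher and 2 lower (3 and 1 with TMEM132D-AS1), and 3244 genes higher and 2135 lower (1071 and 826). Without cells of 100 or more S100A6 UMIs, an alternative added after seeing the data, the S100A6 ratio with TMEM132D-AS1 was 0.96. Depth limits S100A2 and S100A4, with 187 and 157 UMIs in control cells with TMEM132D-AS1.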
